A study of Homo sapiens with 6 samples.

Results

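The 10 genes described here, of 20851 in the deposited table, are negative feedback inhibitors of the ERK/MAPK pathway and factors that report its output. Together they are called feedback genes below. They are the dual-specificity phosphatases DUSP4, DUSP5 and DUSP6, the Sprouty genes SPRY1, SPRY2 and SPRY4, the SPRED genes SPRED1 and SPRED2, and the ETS-family factors ETV4 and ETV5. They were chosen by name from families known to report ERK output, and were selected on this same comparison, with its raw counts already known. Their values between the groups are therefore given as a description, and no p-value of a member is printed. Counts of members, or of fits of a member, past a limit are not read as a result. Those of members are set beside the share of all genes where it was computed.

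In the ERK cascade, RAS activates RAF kinases, which activate MEK and then ERK, and active ERK induces transcripts whose products switch the cascade off again. DUSP phosphatases remove the activating phosphates from ERK, whereas Sprouty and SPRED proteins act above it, between the growth factor receptor and RAF. ETV4 and ETV5 are transcription factors that are themselves induced by ERK, and in melanoma with mutant BRAF all 4 families are widely read as markers of ERK output. A375 is known as a BRAF-mutant melanoma line, but counts per gene do not show that mutation.

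RNA was sequenced from 3 libraries of A375RIPK4.KO cells and 3 of A375neg cells, described as biological replicates. A375RIPK4.KO is a subline of the human melanoma line A375 in which RIPK4, a receptor-interacting serine/threonine kinase, was targeted with CRISPR/Cas9 through a lentiviral guide RNA. The libraries came from 1 clone (#1), so the effect of the knockout and differences between clones cannot be told apart. A375neg received a guide RNA without a target in the human genome, and its labels read "GFP control". By the study's methods both groups were made with the CRISPR/Cas9 system. The sample titles name GFP for A375neg only, and a difference in GFP could not be told apart from the knockout.

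The targeted gene followed the labels, with 319 to 404 raw counts of RIPK4 across A375neg and 42 to 61 across A375RIPK4.KO (log2 fold change −2.69, SE 0.17, adjusted p = 1.01e-05 by the quasi-likelihood test of edgeR, with Benjamini-Hochberg correction). Libraries held 21882863 to 26694140 counts, and 14443 genes had enough counts to be tested. The melanocyte-lineage factor SOX10 had 7448 to 10056 raw counts and MITF, the master regulator of the lineage, 288 to 535, and both were lower in every A375RIPK4.KO library than in any A375neg library. In sums of normalized counts, the melanocyte-lineage markers (5 of 8 listed) ranged from 9436 to 10214 in A375neg and from 8153 to 8565 in A375RIPK4.KO. MLANA, TYR and DCT were not analysed here. The leukocyte markers (3 of 5 listed) ranged from 38.7 to 49.3 in A375neg and from 0 to 17.5 in A375RIPK4.KO, with PTPRC at 0 to 3 raw counts per library and LYZ at 36 to 38 against 0 to 13. LYZ was called lower, that is, past an adjusted p of 0.05 and a 1.5-fold limit in edgeR's test over all genes. Among the melanocyte-lineage markers, S100B was called lower (83 to 160 raw counts against 55 to 64). SOX10, MITF and PMEL were not called, and TYRP1 had too few counts to test. Epithelial markers (4 of 5) ranged from 1977 to 2100 and from 1249 to 1525, endothelial markers (4 of 4) from 300.3 to 405.9 and from 439.4 to 482.2, and fibroblast markers (3 of 5) from 165 to 189.6 and from 143 to 147.6, with A375neg first. Among the epithelial markers, EPCAM had 1 to 6 raw counts per library and KRT14 was called lower, with 461 to 607 against 121 to 158. Among the endothelial markers, VWF had 0 to 5, PECAM1 was called lower (21 to 24 against 4 to 5) and KDR higher (279 to 374 against 391 to 463). The part of these markers in the values below was not tested. A375RIPK4.KO replicate 2 stood apart from the other 2 libraries of its group on the second principal component, so its effect is given where it matters.

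The feedback genes did not move as a block (see the plots of counts and of fold changes). DUSP4 was about 3 times lower in A375RIPK4.KO, DUSP5 was higher, and the other 8 differed by less than 1.5-fold. By the rule for calls, 2 of the 10 members were called, against 9.04% of all genes tested. DUSP4 was the 1 called lower, against 4.65% of all genes, and DUSP5 the 1 called higher, against 4.39%. Without the fold limit, 5 members were below an adjusted p of 0.05 (DUSP4, ETV4, ETV5 and SPRY2 lower, DUSP5 higher), against 16.6% of all genes. For 7 of the 10 members no normalized count of one group lay within the range of the other, against 36.5% of all genes. Since the comparison had already been used to choose the genes, nothing is read from these counts. The median log2 fold change of the members was −0.07, beside −0.0047 over all genes tested, with 5 members above 0 and 5 below.

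**Figure D1:**
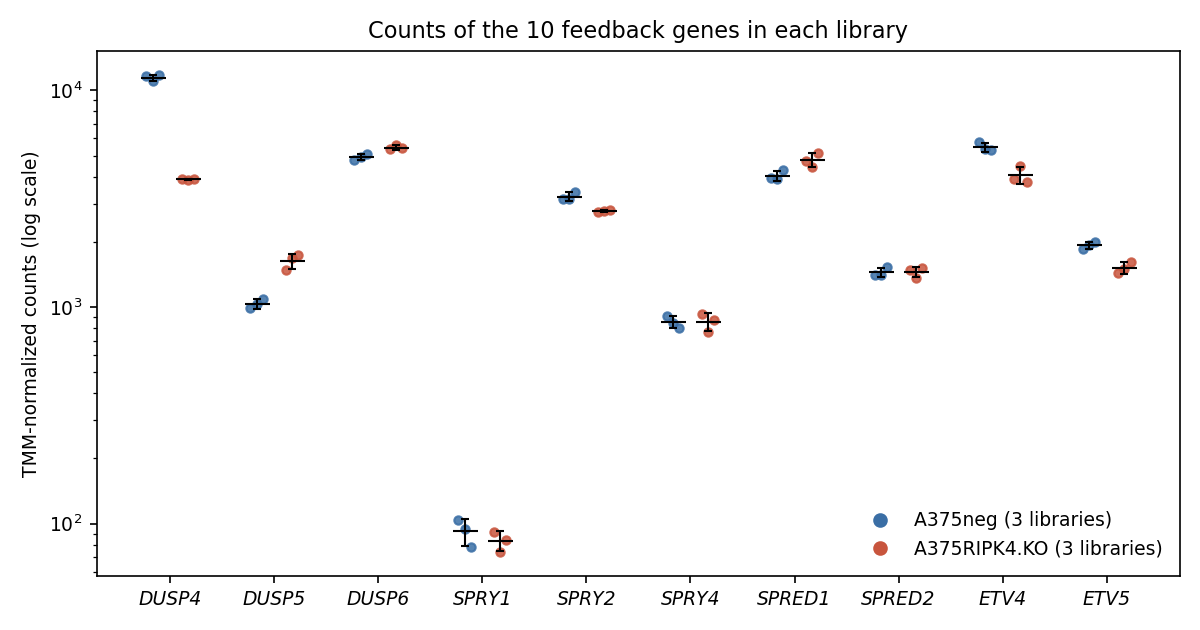
TMM-normalized counts (log axis) of the 10 feedback genes, with 1 point per library, 3 for A375neg in blue and 3 for A375RIPK4.KO in red, and black bars for the mean ± SD. DUSP4 stands at 11036 to 11734 in A375neg and 3875 to 3903 in A375RIPK4.KO, DUSP5 lies higher in A375RIPK4.KO, and the groups of SPRY1, SPRY4 and SPRED2 overlap.

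DUSP4, on chromosome 8, encodes a nuclear phosphatase that acts on ERK and related kinases. Its raw counts were 11605, 11980 and 12380 in A375neg replicates 1 to 3 and 3571, 3712 and 3832 in A375RIPK4.KO replicates 1 to 3. Every A375neg library thus lay far above every A375RIPK4.KO library, at nearly equal depth. Normalized to library size by edgeR's TMM method, the count was 11458 ± 371 (SD, n = 3) in A375neg and 3888 ± 14.5 in A375RIPK4.KO, or 33.9% of the control. The log2 fold change was −1.56 (SE 0.06, 95% interval −1.69 to −1.43). Of the 14443 genes tested, 258 had a lower log2 fold change. The coefficient of variation among the A375RIPK4.KO libraries was 0.373%, below the 1.64% that counting error alone gives at this depth, so the SD of 14.5 understates the error. With any 1 library left out, the log2 fold change stayed between −1.58 and −1.54.

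DUSP5, on chromosome 10, encodes a nuclear phosphatase specific to ERK. It had 987, 1118 and 1148 raw counts in A375neg and 1354, 1608 and 1708 in A375RIPK4.KO, with no overlap between the groups. The normalized count was 1035 ± 50.8 (SD, n = 3) against 1630 ± 133, or 158% of the control. Its log2 fold change of 0.66 (SE 0.08, 95% interval 0.48 to 0.83) had the opposite sign to that of DUSP4. Among the genes tested, 985 had a higher one. The interval includes values under 1.5-fold, the limit used for calls.

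DUSP6, on chromosome 12, encodes the cytoplasmic ERK phosphatase and is the member most often used as a marker of ERK activity. Its raw counts were 4784, 5355 and 5386 in A375neg and 4900, 5353 and 5328 in A375RIPK4.KO, 2 ranges that overlap. After normalization the groups lay just apart, at 4940 ± 161 (SD, n = 3) and 5448 ± 123. The log2 fold change was 0.14 (SE 0.06, 95% interval 0.01 to 0.27). It was not among the 5 members with an adjusted p under 0.05, and across 13 alternative fits the log2 fold change ranged from 0.12 to 0.17. An antisense gene, AC024909.2, shares 1875 exon bases with DUSP6 on the opposite strand. The libraries were strand-specific, but the strand setting of the counting is not given in the sources used here.

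The ratio of DUSP4 to DUSP6 raw counts within a library does not depend on normalization. It was 2.43, 2.24 and 2.30 in A375neg and 0.729, 0.693 and 0.719 in A375RIPK4.KO. DUSP4 counts therefore exceeded those of DUSP6 in every control library and were below them in every knockout library. The ratio of DUSP4 to DUSP5 was 10.7 to 11.8 in A375neg and 2.24 to 2.64 in A375RIPK4.KO.

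**Figure D2:**
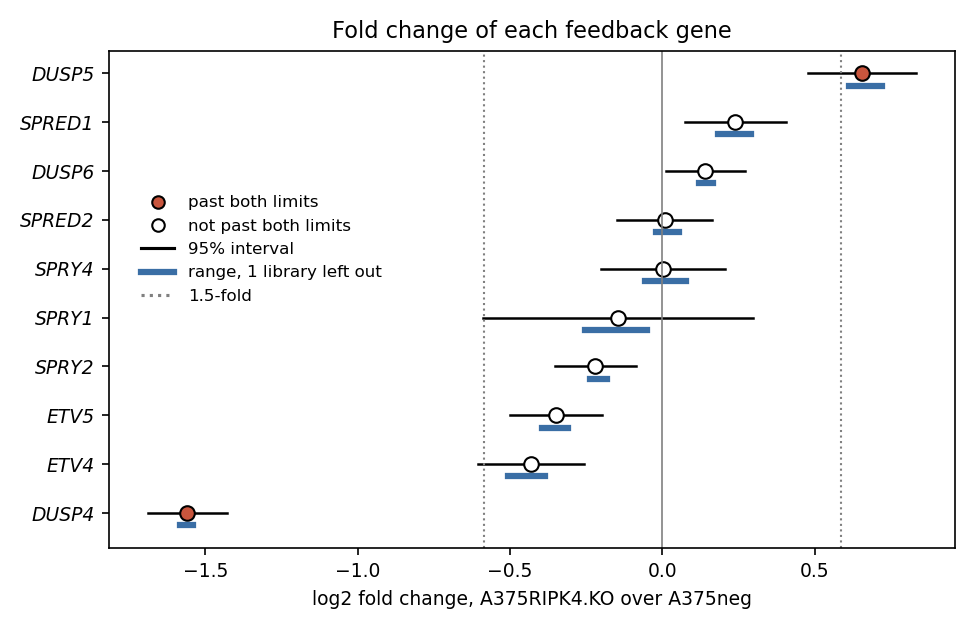
Log2 fold change of each feedback gene in A375RIPK4.KO over A375neg, with its 95% interval in black, the range with 1 library left out at a time in blue, and dotted lines at 1.5-fold. DUSP4 at −1.56 and DUSP5 at 0.66 lie past the dotted lines and the other 8 genes lie between −0.43 and 0.24.

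Sprouty genes encode membrane-associated inhibitors of receptor signalling to ERK. SPRY2, on chromosome 13, was the most abundant of them. It had 3145, 3412 and 3589 raw counts in A375neg and 2512, 2647 and 2772 in A375RIPK4.KO, so every knockout library was lower. The normalized count was 3230 ± 149 (SD, n = 3) against 2773 ± 33.6, or 85.9% of the control, with a log2 fold change of −0.22 (SE 0.06, 95% interval −0.35 to −0.09). Across 13 alternative fits the log2 fold change ranged from −0.24 to −0.18. The adjusted p (edgeR or DESeq2) was under 0.05 in 7 of them, a count that is not read as a result.

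SPRY1, on chromosome 4, was the least abundant member. Its raw counts of 104, 103 and 82 in A375neg overlapped those of 84, 71 and 83 in A375RIPK4.KO. The log2 fold change was −0.15 (SE 0.20), and its 95% interval of −0.59 to 0.30 just reaches the limit of 1.5-fold on the lower side. The smallest difference that could be detected was not computed. At this depth counting error alone gives a coefficient of variation of 10.2% in A375neg and 11.2% in A375RIPK4.KO.

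SPRY4, on chromosome 5, had 911, 917 and 846 raw counts in A375neg and 848, 735 and 856 in A375RIPK4.KO. The normalized counts of 853 ± 54.9 (SD, n = 3) and 854 ± 80.8 overlapped, and the log2 fold change was 0.00 (SE 0.09, 95% interval −0.20 to 0.21). The antisense gene SPRY4-AS1, which overlaps the SPRY4 gene but none of its exon bases, had 20 to 37 raw counts per library.

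The stretches upstream of the SPRY2 and SPRY1 starts are shown because these paralogs differed most in level within a family. Per kilobase of exon, SPRY2 was 45.7 times as abundant as SPRY1 in A375neg and 43.4 times in A375RIPK4.KO. Each is the 250 bases before a transcript start in RefSeq's GRCh38.p14 annotation, read 5′ to 3′ on the strand of the gene. Capitals mark GGAA, the core of the site bound by ETS factors such as ETV4 and ETV5, and TTCC, the same core on the other strand. SPRY2 is at chr13:80341127-80341376 on the minus strand and SPRY1 at chr4:123396545-123396794 on the plus strand, both directly upstream of the first transcript start.
SPRY2: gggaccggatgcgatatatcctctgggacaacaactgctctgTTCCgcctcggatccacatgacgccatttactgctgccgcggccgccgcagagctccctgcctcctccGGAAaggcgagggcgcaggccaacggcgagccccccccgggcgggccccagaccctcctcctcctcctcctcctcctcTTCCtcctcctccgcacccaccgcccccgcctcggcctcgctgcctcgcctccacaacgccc
SPRY1: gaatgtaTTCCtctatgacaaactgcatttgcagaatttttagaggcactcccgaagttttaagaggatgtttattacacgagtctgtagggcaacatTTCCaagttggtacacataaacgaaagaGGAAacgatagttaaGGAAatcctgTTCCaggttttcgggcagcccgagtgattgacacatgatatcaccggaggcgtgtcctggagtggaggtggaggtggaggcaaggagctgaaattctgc

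The SPRY2 stretch holds 3 such cores and 70.4% G or C, and the SPRY1 stretch holds 5 cores and 45.6% G or C. At the further SPRY2 starts the 250 bases held 4 cores each, with 62.4% and 41.2% G or C. Those of the further SPRY1 start held 4 cores and 68% G or C. The difference between the stretches shown thus depends on the start chosen. Promoter windows were matched for 6 of the 10 members, with 10 windows of 300 bases in all (SPRY1, SPRY2, SPRY4, SPRED1, SPRED2 and DUSP6). Each window held 3 to 6 GGAA cores on either strand. The core is short, and 95.5% of the 35116 promoter windows of that length hold it, with a median of 3. The longer ETS form CCGGAAGT, found in 4.14% of all windows, and the CRE TGACGTCA, found in 1.85%, were in none of the 10. The AP-1 site TGANTCA, found in 7.71% of all windows, was in 1 of them, an internal start of SPRED2 with 2 matches. No motif overlaps another except that CCGGAAGT contains GGAA. These are matches of letters only.

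SPRED proteins bind neurofibromin and bring it to RAS at the membrane, which lowers RAS activity. SPRED1, on chromosome 15, had 3934, 4220 and 4534 raw counts in A375neg and 4318, 4256 and 5068 in A375RIPK4.KO, ranges that overlap before normalization. After it they did not, at 4039 ± 225 (SD, n = 3) and 4767 ± 350, or 118% of the control. The log2 fold change was 0.24 (SE 0.07, 95% interval 0.07 to 0.40). Across 13 alternative fits it ranged from 0.18 to 0.29, and the adjusted p (edgeR or DESeq2) was under 0.05 in 5 of them. Nothing is read from this count either.

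SPRED2, on chromosome 2, had 1410, 1521 and 1609 raw counts in A375neg and 1360, 1304 and 1489 in A375RIPK4.KO. Its normalized counts of 1445 ± 69.2 (SD, n = 3) and 1452 ± 80.0 overlapped. The log2 fold change was 0.01 (SE 0.07, 95% interval −0.15 to 0.16). SPRED2 and SPRY4 were the members closest to 0, and for both the interval excludes a 1.5-fold difference in either direction.

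ETV4 and ETV5 are closely related ETS factors of the PEA3 group, and both were lower in the knockout libraries. ETV4, on chromosome 17, had 5762, 5825 and 5573 raw counts in A375neg and 3570, 4285 and 3733 in A375RIPK4.KO. No knockout library reached a control library. The normalized count was 5470 ± 256 (SD, n = 3) against 4053 ± 368, or 74.1% of the control, and the log2 fold change was −0.43 (SE 0.08, 95% interval −0.61 to −0.26). ETV4 shares 68 exon bases with DHX8, an RNA helicase gene on the opposite strand, which had 4068 to 4327 raw counts in A375neg and 3440 to 3672 in A375RIPK4.KO.

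ETV5, on chromosome 3, had 1861, 2101 and 2115 raw counts in A375neg and 1317, 1433 and 1595 in A375RIPK4.KO, again with no overlap. The normalized count was 1934 ± 72.0 (SD, n = 3) against 1517 ± 90.8, or 78.5% of the control, with a log2 fold change of −0.35 (SE 0.07, 95% interval −0.50 to −0.20). The 2 factors thus had similar values, and the interval of each holds the value of the other. ETV5 shares 164 exon bases on its own strand with DGKG, a diacylglycerol kinase gene, which had 784 to 834 raw counts in A375neg and 541 to 655 in A375RIPK4.KO. The part of these neighbours in the ETV4 and ETV5 counts was not tested.

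Levels were compared between genes as normalized counts per kilobase of exon (the union of a gene's exons in GENCODE 29). In A375neg, DUSP4 (1579 ± 51.2, SD, n = 3) and ETV4 (1516 ± 70.9) came first, with overlapping libraries. DUSP6 (1067 ± 34.8) and SPRY2 (1063 ± 49.0) followed, also overlapping. Below them came SPRED1 at 489.0, DUSP5 at 395.8, ETV5 at 333.3, SPRED2 at 280.4, SPRY4 at 129.9 and SPRY1 at 23.3, each separate from the next.

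In A375RIPK4.KO, DUSP6 (1176 ± 26.5, SD, n = 3) and ETV4 (1124 ± 102) came first, with overlapping libraries, followed by SPRY2 (912.8 ± 11.1). DUSP4, at 535.7 per kilobase, stood below 5 other members. DUSP5 at 623.3 overlapped SPRED1 at 577.1, and SPRED1 in turn overlapped DUSP4. SPRED2 at 281.8 overlapped ETV5 at 261.5, and SPRY4 at 130.1 and SPRY1 at 21.0 were again the last. The order within a group depends on the length used. With the length of the principal transcript, ETV4 was first in both groups, ahead of DUSP4 in A375neg, and DUSP4 stood above DUSP5 and SPRED1 in A375RIPK4.KO.

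Within the 3 phosphatases, the make-up differed between the groups (see the bars by family). DUSP4 made up 51.9% ± 1.08 (SD, n = 3) of their summed level per kilobase in A375neg and 22.9% ± 0.757 in A375RIPK4.KO. DUSP6 made up 35.1% ± 0.709 and 50.4% ± 0.971, and DUSP5 12.5% to 13.3% in A375neg and 26.6% ± 1.52 in A375RIPK4.KO. The largest share thus passed from DUSP4 to DUSP6. Among the members of each other family the leading gene was the same in all 6 libraries. SPRY2 held 84.6% to 88.8% of the level of the Sprouty members, and ETV4 held 79.0% to 83.3% of that of ETV4 and ETV5. SPRED1 held 63.4% to 63.7% of the level of SPRED1 and SPRED2 in A375neg and 66.5% to 68.0% in A375RIPK4.KO. Relatives outside the members were left out of these sums. They include SPRED3 and ETV1, which had a normalized count of 2155 in A375neg, against 1934 for ETV5.

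**Figure D3:**
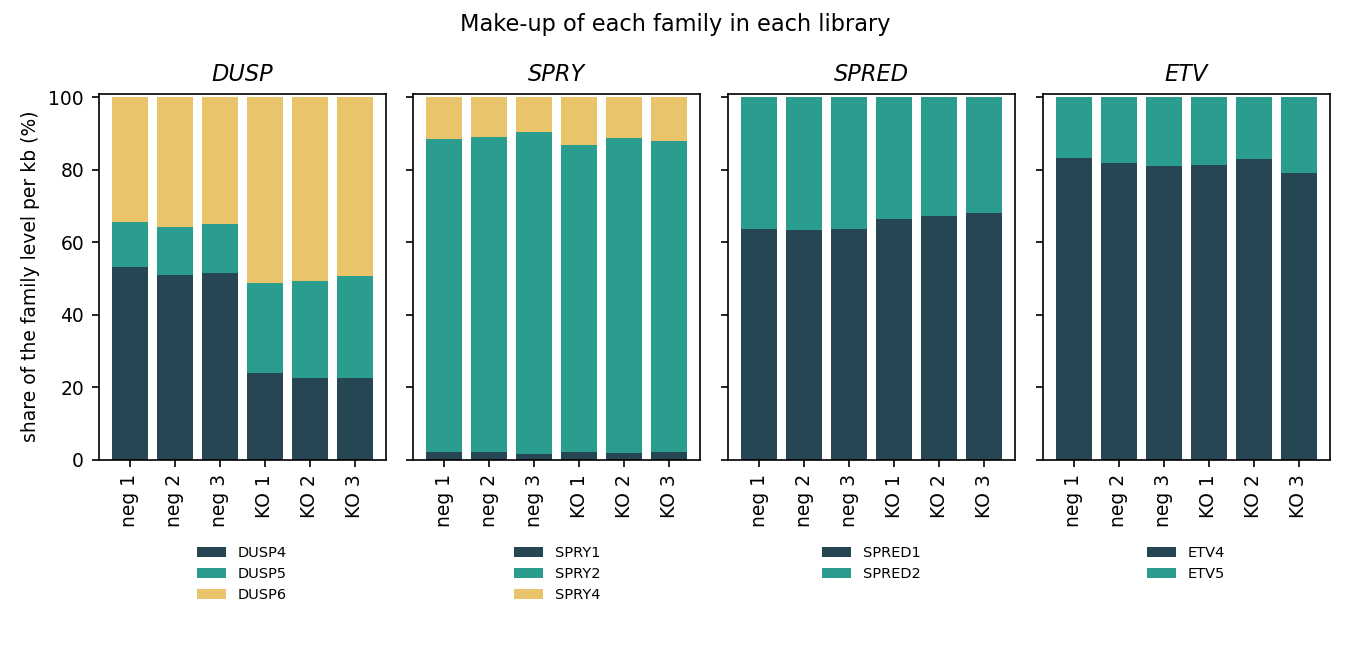
Share (%) of each gene in the summed level per kilobase of the members of its family, without other relatives. There is 1 bar for each of the 3 A375neg and 3 A375RIPK4.KO libraries. DUSP4 holds 51.0% to 53.1% of the DUSP bar in A375neg and 22.4% to 23.8% in A375RIPK4.KO, while the leading gene of each of the other 3 families is the same in both groups and the SPRED1 share is 63.4% to 63.7% against 66.5% to 68.0%.

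Summed over the 10 genes, the level per kilobase was 6877, 6730 and 7023 in A375neg and 5518, 5727 and 5685 in A375RIPK4.KO. The mean was 17.9% lower in A375RIPK4.KO. Without DUSP4 the sums were 5278, 5210 and 5406 against 4980, 5193 and 5150, and the mean was 3.59% lower. DUSP4 alone held 22.6% to 23.3% of the sum in A375neg and 9.32% to 9.75% in A375RIPK4.KO.

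The members also varied among libraries of the same group. As a description, Pearson's r of the deviations of log2 CPM (the log of counts at equal library size) from the group mean was taken for each of the 45 pairs of members over the 6 libraries, which share depth and normalization. It ranged from −0.98 to 0.93, with a median of 0.05 and 27 pairs above 0. The paralogs SPRED1 and SPRED2 (r = 0.93) and SPRY1 and SPRY4 (r = 0.91) deviated together, as did DUSP5 and ETV5 (r = 0.90). DUSP6 and SPRY1 deviated in opposite directions (r = −0.98). These pairs are the extremes of the 45. SPRY1 had the widest deviations, from −0.231 to 0.180, and DUSP4 in A375RIPK4.KO the narrowest, from −0.005 to 0.006. The coefficient of variation of SPRY1 was 14.5% in A375neg and 10.7% in A375RIPK4.KO, near the 10.2% and 11.2% from counting error alone. Over all genes, deviations followed gene length most in A375RIPK4.KO replicate 2 (Spearman's r −0.262, against 0.147 and 0.0853 in replicates 1 and 3). The part of this trend in the pairs was not tested.

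**Figure D4:**
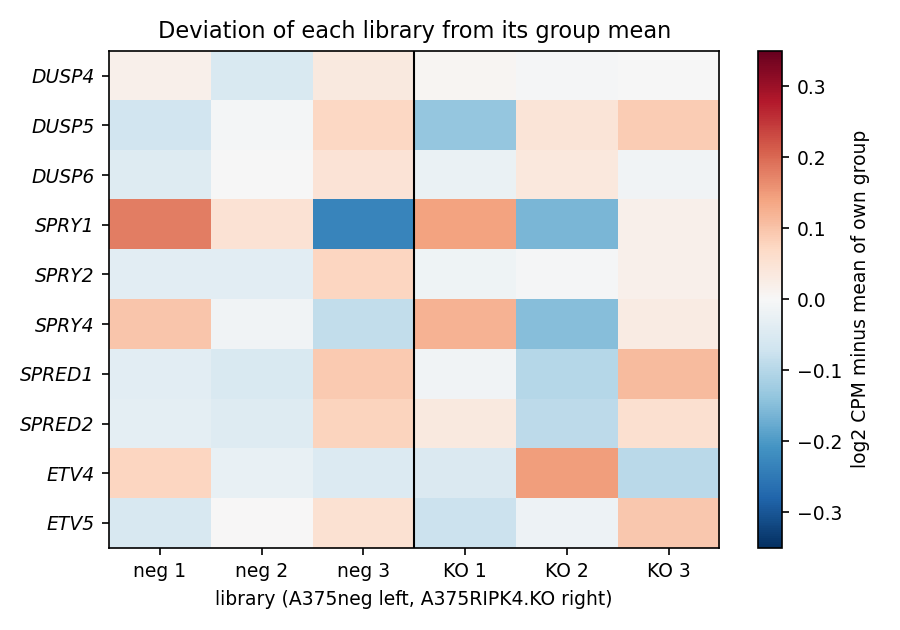
Deviation of log2 CPM from the mean of its own group for the 10 feedback genes (vertical axis) in the 6 libraries (horizontal axis), with red above the group mean and blue below it. SPRED1 and SPRED2 are both below the mean in A375RIPK4.KO replicate 2 while ETV4 is above it, and SPRY1 ranges from −0.231 to 0.180.

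DUSP4 had the largest absolute log2 fold change, and its log2 CPM pattern over the 6 libraries was compared with that of the other protein-coding genes. The closest 5 were IL24 (a cytokine gene; r = 0.9995, log2 fold change −7.11), MCTP2 (r = 0.9994, −3.08), TMX4 (r = 0.9992, −1.22), CEMIP (r = 0.9992, −2.23) and RTL1 (r = 0.9991, −3.51). With 2 groups of 3 libraries a high r mostly reflects the difference between the groups. Of 12141 protein-coding genes, 587 had an r over 0.95 and 133 over 0.99.

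Other genes of the pathway were taken from 4 lists and read from the same edgeR fit (see the plot of pathway lists). Of all genes tested, 4.39% were called higher and 4.65% lower, the shares to set beside each list below. Among relatives of the members, 1 of 7 tested genes was called higher and 0 lower. It was DUSP9, another ERK phosphatase, with 80, 118 and 100 raw counts in A375neg and 238, 349 and 342 in A375RIPK4.KO (log2 fold change 1.77, SE 0.18, adjusted p = 0.000216 by edgeR). The list had a median log2 fold change of −0.03. DUSP9 had far fewer raw counts than DUSP4 in both groups.

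Among other inhibitors of the pathway, 1 of 11 tested genes was called lower and 0 higher, with a median of −0.11. IL17RD, which encodes a membrane inhibitor of FGF receptor signalling to ERK, had 189, 186 and 158 raw counts in A375neg and 54, 66 and 52 in A375RIPK4.KO. Its log2 fold change was −1.50 (SE 0.19, adjusted p = 0.000643 by edgeR), close in size to that of DUSP4.

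In the core of the cascade, from the RAS genes and their activators to the ERK genes and their substrates, 1 of 19 tested genes was called lower and 0 higher, with a median of −0.03. The called gene was HRAS, with 407, 377 and 24 raw counts in A375neg and 14, 47 and 12 in A375RIPK4.KO (log2 fold change −3.34, SE 0.91, adjusted p = 0.0357 by edgeR). The groups overlapped, since A375neg replicate 3 was lower than A375RIPK4.KO replicate 2. The call was lost when A375neg replicate 1 or 2, or A375RIPK4.KO replicate 1 or 3, was left out, and its log2 fold change then ranged from −3.08 to −2.85.

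Of the 18 ERK-responsive transcripts, 4 were called lower and 0 higher, against 4.65% and 4.39% of all genes, with a median of −0.02 and 9 genes on each side of 0. Without the fold limit, 8 had an adjusted p under 0.05 by edgeR, 6 lower and 2 higher, against 16.6% of all genes. All 4 called genes were among the 12 with separate groups, against 36.5% of all genes. EGR1, an immediate-early zinc finger factor, had 352, 342 and 332 raw counts in A375neg and 118, 81 and 123 in A375RIPK4.KO (log2 fold change −1.54, SE 0.18, adjusted p = 0.000409 by edgeR). Its paralog EGR3 had 420, 480 and 627 against 232, 192 and 216 (log2 fold change −1.11, SE 0.16, adjusted p = 0.00132 by edgeR). FOS, a subunit of AP-1, had 174, 144 and 173 against 79, 84 and 82 (log2 fold change −0.87, SE 0.17, adjusted p = 0.00811 by edgeR). LIF, a cytokine gene, had 1570, 1818 and 1588 against 962, 965 and 949 (log2 fold change −0.65, SE 0.07, adjusted p = 0.000256 by edgeR).

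PHLDA1, CCND1, EPHA2 and EPHA4 are often read together with 6 of the members as a score of MAPK activity. None of the 4 was called. EPHA2, an ephrin receptor, had 11254, 12627 and 12397 raw counts in A375neg and 12468, 13957 and 14809 in A375RIPK4.KO (log2 fold change 0.32, SE 0.06, adjusted p = 0.00727 by edgeR), below the fold limit. PHLDA1 had a log2 fold change of 0.06 (SE 0.07, adjusted p = 0.591 by edgeR) and EPHA4 of 0.07 (SE 0.08, adjusted p = 0.636 by edgeR). CCND1, which encodes cyclin D1, had −0.11 (SE 0.10, adjusted p = 0.5 by edgeR), and this sign turned without A375RIPK4.KO replicate 2, where its count was lowest.

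**Figure D5:**
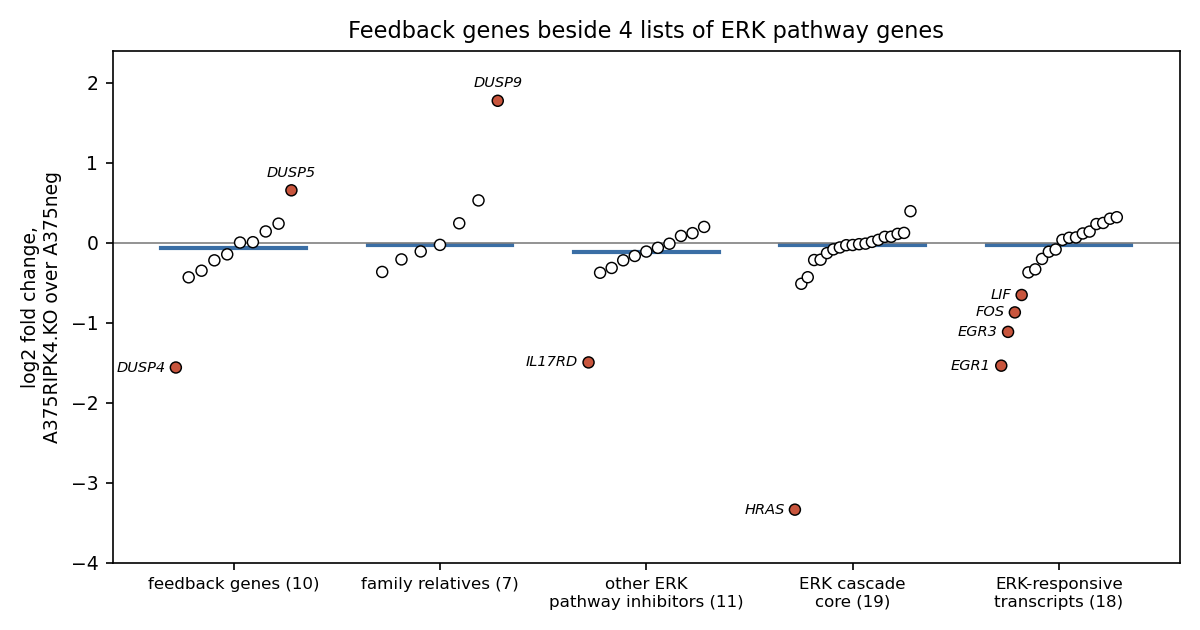
Log2 fold change in A375RIPK4.KO over A375neg of the 10 feedback genes and of the tested genes of 4 pathway lists, with 1 point per gene, called genes filled and named, and blue lines for the medians. The medians of the 5 groups lie between −0.11 and −0.02, and 9 of the 65 points are called, against 9.04% of all genes tested. The 65 include the 10 feedback genes, which were chosen on this comparison, so nothing is read from this count.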

How the data were processed

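RNA of 6 A375 libraries was poly(A)-enriched and sequenced from strand-specific libraries by the authors. Their deposited table holds raw counts per gene, whole numbers without normalization. The submitters' processing notes name cutadapt, FastQC, HISAT2, HTSeq, DESeq2 and GRCh38.p13, without versions. It also holds normalized counts, a signal the authors made by dividing raw counts by 1 size factor per library, and the authors' own comparison (fold change, log2 fold change, Wald statistic, p-values, standard error and base mean), which was not used.

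Raw counts of both groups, taken from the sample titles, were compared with edgeR 4.0.16 in R 4.3.3 (TMM normalization, low counts removed by filterByExpr, quasi-likelihood test, p-values corrected by Benjamini-Hochberg across 14443 genes). Normalized counts are raw counts divided by TMM-scaled library size. SE is the log2 fold change over the root of F. The lowest total of a listed gene was 4 counts. A count of 0 in a library allows up to 3 counts (0.112 to 0.137 CPM), for counting error only. Log2 CPM, also used in the principal component analysis, had a prior count of 2. Gene lengths came from GENCODE 29, matched for 16282 genes by name and 438 by an older symbol, and promoter windows from RefSeq. The steps were tested on simulated data. P-values measure the spread between these libraries.

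Named genes were all members, RIPK4, up to 4 called genes of each pathway list, PHLDA1, CCND1, EPHA2 and EPHA4, and the 5 genes most like the member of the largest change. SOX10, MITF and other melanocyte-lineage markers, markers of other cell types and the genes of a list of undifferentiated melanoma markers were named in addition. So were SOS2, ETV1, SPRED3 and the genes that overlap members. The members and lists were chosen with earlier results of these data known. DUSP8, DUSP16 and RASAL1 were not analysed here, and SPRY3 and RPS6KA1 had too few counts to test. Alternatives were DESeq2 1.42.0, 2 other normalizations, 2 other filters, the replicate block, a gene length correction, each library left out, other call limits, and another gene length.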

Additional observations from a re-analysis of the deposited data

How the results depend on the processing

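The members were chosen on this comparison, so their calls and signs are listed only as values. In each of 13 alternative fits 2 members were called (DESeq2, other normalizations and filters, the replicate block, the gene length correction and each library left out). These fits reuse the same libraries. Of all genes, 963 (filter at a mean of 50 counts) to 1357 (gene length correction) were called in them. Without the fold limit, 4 to 6 members had an adjusted p under 0.05 by edgeR or DESeq2. The share of all genes in these fits without that limit was not computed. In the main edgeR fit it was 16.6%, beside 5 members. SPRY4 and SPRED2 kept their sign in 9 of the fits and the other 8 members in 13. The median of the members ranged from −0.1345 (without A375RIPK4.KO replicate 1) to −0.0041 (without A375RIPK4.KO replicate 2), and the cause was not tested.

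With no fold limit 5 members were called (4 lower), 2403 of all genes (1190 lower, 1213 higher), 2 other inhibitors, 2 cascade genes and 8 ERK-responsive transcripts. At 2-fold or more 1 member was called (0 higher), 793 of all genes (398 lower, 395 higher) and 2 ERK-responsive transcripts. These follow from the limit itself. With 1 library left out, 1059 to 1336 genes were called (548 to 672 lower, 511 to 664 higher) and 0 to 1 cascade genes. That 1 was HRAS without A375neg replicate 3 (log2 fold change −3.88) or A375RIPK4.KO replicate 2 (−4.23), and SOS2 without A375RIPK4.KO replicate 3. CCND1 ranged from −0.1892 to 0.0066, the latter without A375RIPK4.KO replicate 2.

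Deviations of log2 CPM from the group mean had r from −0.0119 to 0.0823 between samples with the same replicate number. Between samples with different numbers r was −0.0956 to 0.0674. Deviations from a mean of 3 libraries are tied to each other, so this check cannot decide whether the numbers pair the samples. With the replicate block, 2 members and 1266 genes were called.

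With the length of the principal transcript, chosen after seeing the data, the DUSP4 level in A375neg was 2069 per kilobase. A RefSeq exon length and the comparison of member proteins were not run. Searching 1 strand, 78.8% of promoter windows held GGAA. With 3 libraries a group from 1 clone, depth limits SPRY1 most.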

Other observations

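The markers of an undifferentiated melanoma state, all 6 of which were tested, were divided between the groups, with 2 called higher in A375RIPK4.KO and 2 lower by edgeR. JUN, which pairs with FOS in AP-1, had 920, 1001 and 932 raw counts in A375neg and 1760, 1938 and 2000 in A375RIPK4.KO (log2 fold change 1.13, SE 0.06, adjusted p = 4.79e-06 by edgeR), whereas FOS was lower. NRG1, a ligand of ERBB receptors, had 251, 270 and 273 against 440, 405 and 482 (log2 fold change 0.88, SE 0.10, adjusted p = 0.000452 by edgeR). NGFR, a neurotrophin receptor, had 192, 173 and 209 against 12, 21 and 31 (log2 fold change −3.03, SE 0.29, adjusted p = 0.000141 by edgeR). WNT5A, a ligand of the non-canonical Wnt pathway, had 2015, 2216 and 2600 against 906, 764 and 1056 (log2 fold change −1.19, SE 0.12, adjusted p = 0.000182 by edgeR). AXL, a receptor tyrosine kinase and the most abundant of the 6, had a log2 fold change of 0.18 (SE 0.06, adjusted p = 0.0727 by edgeR), and EGFR one of 0.22 (SE 0.12, adjusted p = 0.261 by edgeR).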
